A study of Mus musculus with 9 samples.

Results

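The 40 genes described here are genes of the cell cycle in mouse tumour macrophages, 18 of DNA replication and 22 of mitosis. They were chosen by symbol from textbook roles, with earlier results of these data known. All 40 were among the 18042 gene symbols of the table and passed the filter on low counts, which left 13090 genes. The RNA came from CD11b+ F4/80+ cells that had been sorted from subcutaneous tumours of MC38, a mouse colon carcinoma line. The hosts were female C57BL/6 mice, aged 6 to 8 weeks when 1000000 tumour cells were injected, and labelled wild type. After randomisation on day 9 the Control group received solvent in the tumour (PBS, by 1 label), the OMVs group received OMVs and the IN@OMVs group received IN@OMVs. Both vesicle preparations were given at 12.5 µg of vesicle protein per mouse, or 625 µg per kg. Bacteria release outer membrane vesicles, for which OMVs is the usual abbreviation. What IN is, and how many mice gave each replicate, the labels leave out. Each group had 3 libraries, named below by group and number.

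A cell copies its DNA in S phase and divides in M phase. Cyclin E with CDK2 starts S phase, the MCM helicase opens the origins and PCNA clamps the polymerase to DNA. Cyclin A and cyclin B with CDK1 then drive the cell into mitosis, where kinesins, centromere proteins and the Aurora and Polo kinases build the spindle and the anaphase-promoting complex ends the phase. Replication genes are largely transcribed under E2F factors, and mitotic genes under the MuvB complex with B-MYB and FOXM1, through a promoter element called CHR that often stands beside CCAAT boxes. Tumour macrophages arise mostly from blood monocytes, and part of them can divide in the tissue.

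Both phases differed in the letters of their promoters. RefSeq promoter windows (build GRCm38.p6, 250 bases before to 50 after the start, first window of each gene) were found for 33 of the 40 genes. An E2F match was the run TTGGCGC, the run TTCCCGC, the run TTGCCGC or the run TTCGCGC. A CHR match was the run TTTGAA or the run TTCGAA, and the third motif was CCAAT. Both strands were read, and motifs could overlap. An E2F match stood in 10 of 15 replication windows (66.7%), in 3 of 18 mitosis windows (16.7%) and in 9.69% of all 27025 windows. A CHR match stood in 14 of 18 mitosis windows (77.8%), in 2 of 15 replication windows (13.3%) and in 19.4% of all windows. Within the 250 bases before the start alone, CHR stood in 8 of 18 mitosis windows (44.4%), 2 of 15 replication windows (13.3%) and 17.4% of all. CCAAT stood in 16 of 18 mitosis windows (88.9%), 9 of 15 replication windows (60%) and 37.9% of all. A match is a run of letters, not a measured site. The 250 bases before the start are printed for the 2 genes that fell (Ccnb2, Cenpa), for the mitosis gene that differed least in IN@OMVs (Cdk1) and for 2 replication genes whose IN@OMVs libraries all lay below the other 6 (Rrm1, Hells), 5′ to 3′ on the gene's strand with motif matches of either strand in capitals.
Ccnb2 (chr9:70421555-70421804, minus strand): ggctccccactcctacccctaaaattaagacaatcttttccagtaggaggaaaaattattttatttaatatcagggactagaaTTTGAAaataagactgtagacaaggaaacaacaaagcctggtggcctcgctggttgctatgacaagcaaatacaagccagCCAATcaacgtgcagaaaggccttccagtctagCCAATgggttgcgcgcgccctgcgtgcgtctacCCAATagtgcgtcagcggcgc
Cenpa (chr5:30666636-30666885, plus strand): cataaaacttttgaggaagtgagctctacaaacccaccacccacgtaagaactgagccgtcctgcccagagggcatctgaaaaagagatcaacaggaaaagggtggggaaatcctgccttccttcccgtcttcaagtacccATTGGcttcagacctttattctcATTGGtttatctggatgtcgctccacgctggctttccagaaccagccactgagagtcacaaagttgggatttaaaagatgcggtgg
Cdk1 (chr10:69352913-69353162, minus strand): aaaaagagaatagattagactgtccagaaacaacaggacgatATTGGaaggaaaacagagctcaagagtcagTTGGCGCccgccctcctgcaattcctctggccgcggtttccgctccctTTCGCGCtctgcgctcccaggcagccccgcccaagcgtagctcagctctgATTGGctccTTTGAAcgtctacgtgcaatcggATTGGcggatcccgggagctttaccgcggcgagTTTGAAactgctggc
Rrm1 (chr7:102441445-102441694, plus strand): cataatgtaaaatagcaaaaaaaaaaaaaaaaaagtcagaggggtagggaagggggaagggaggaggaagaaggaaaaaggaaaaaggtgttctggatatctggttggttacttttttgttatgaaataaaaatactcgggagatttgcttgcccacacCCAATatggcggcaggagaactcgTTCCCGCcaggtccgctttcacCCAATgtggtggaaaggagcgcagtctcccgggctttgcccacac
Hells (chr19:38930740-38930989, plus strand): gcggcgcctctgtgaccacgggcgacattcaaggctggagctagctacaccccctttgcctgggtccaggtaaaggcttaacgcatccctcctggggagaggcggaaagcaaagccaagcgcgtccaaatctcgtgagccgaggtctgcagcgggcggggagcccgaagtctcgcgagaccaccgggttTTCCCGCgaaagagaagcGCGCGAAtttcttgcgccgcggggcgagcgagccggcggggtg
The capitals show 3 CCAAT runs and a CHR run upstream of Ccnb2, 2 CCAAT runs upstream of Cenpa, and all 3 kinds of motif upstream of Cdk1. The CHR run of Cenpa and a further CHR run of Ccnb2 lay after the start and are not printed. Rrm1 had an E2F run between its CCAAT runs, and Hells had E2F runs alone.

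The libraries held 16813230 to 17288322 expected counts, and a single gene of the 40 had between 164.28 and 7508 of them in a library. Library IN@OMVs 1 stood apart from all others: 28% of the genes tested were lowest there and 27.3% highest there. Its fibroblast markers (10 of 10 measured) summed to 1610 CPM against 3820 to 6310 CPM in the other 8 libraries. T cell markers (12 measured of 15) summed to 253, 217 and 244 CPM in the libraries numbered 1 of Control, OMVs and IN@OMVs, and to 44.6 to 104 CPM in the other 6. The macrophage markers were all measured (11 of 11), at a sum of 11600 to 17600 CPM. Of 8 epithelial markers in the table only Epcam and Cdh1 passed the filter, and Cldn4 was at 0 in every library. CPM here means counts per 1000000 counts of a library after TMM scaling.

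No replication gene passed the edgeR test in any comparison, while mitosis genes leaned lower in IN@OMVs. All 22 mitosis genes had negative fitted changes in IN@OMVs against Control, with a median of -0.27 on the log2 scale (-0.39 to -0.05), and 2 of them, Ccnb2 and Cenpa, fell, where edgeR called 858 of 13090 genes (6.55%). All 22 were negative against OMVs too (median -0.28, -0.41 to -0.12), with 0 past the threshold, where edgeR called 2.85% of all genes. The 2 comparisons share the IN@OMVs libraries, and both comparisons with Control share its libraries. The 18 replication genes had medians of -0.03 and -0.08 in the same comparisons, and the median over all genes tested was 0.00 in each. These are bulk samples, so fewer dividing cells and less RNA of these genes per cell cannot be told apart.

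**Figure D1:**
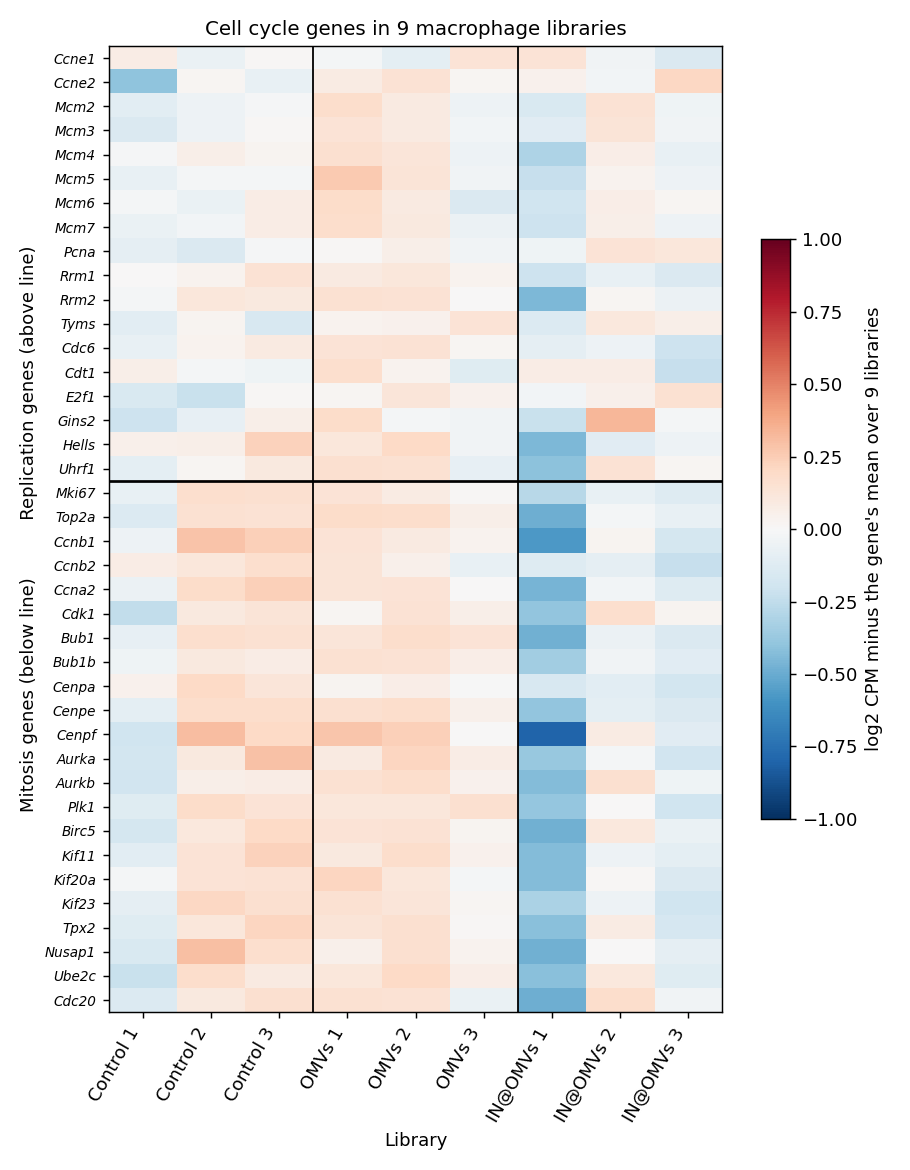
Each row is a gene and each column a library, coloured by log2 CPM minus the gene's mean over the 9 libraries, with replication genes above the thick line and mitosis genes below it. IN@OMVs 1 is the lowest library for 20 of the 22 mitosis genes and for 10 of the 18 replication genes.

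The mean log2 CPM of the 22 mitosis genes was 6.24, 6.51 and 6.52 in Control 1, 2 and 3, 6.48, 6.50 and 6.39 in OMVs 1, 2 and 3, and 5.93, 6.37 and 6.23 in IN@OMVs 1, 2 and 3. All IN@OMVs libraries lay below all OMVs libraries, while IN@OMVs 2 lay above Control 1. For the 18 replication genes it was 5.84, 5.89 and 5.95 in Control, 6.04, 6.01 and 5.90 in OMVs, and 5.75, 5.97 and 5.89 in IN@OMVs. The groups overlapped. The difference between both means, mitosis minus replication, was 0.40, 0.62 and 0.57 in Control, 0.44, 0.49 and 0.49 in OMVs, and 0.18, 0.39 and 0.34 in IN@OMVs. IN@OMVs lay below both other groups in that difference, with 0.39 in IN@OMVs 2 next to 0.40 in Control 1. Between libraries of the same number, IN@OMVs minus Control was -0.22, -0.23 and -0.23, and OMVs minus Control was 0.04, -0.13 and -0.08. No test is given for these means.

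**Figure D2:**
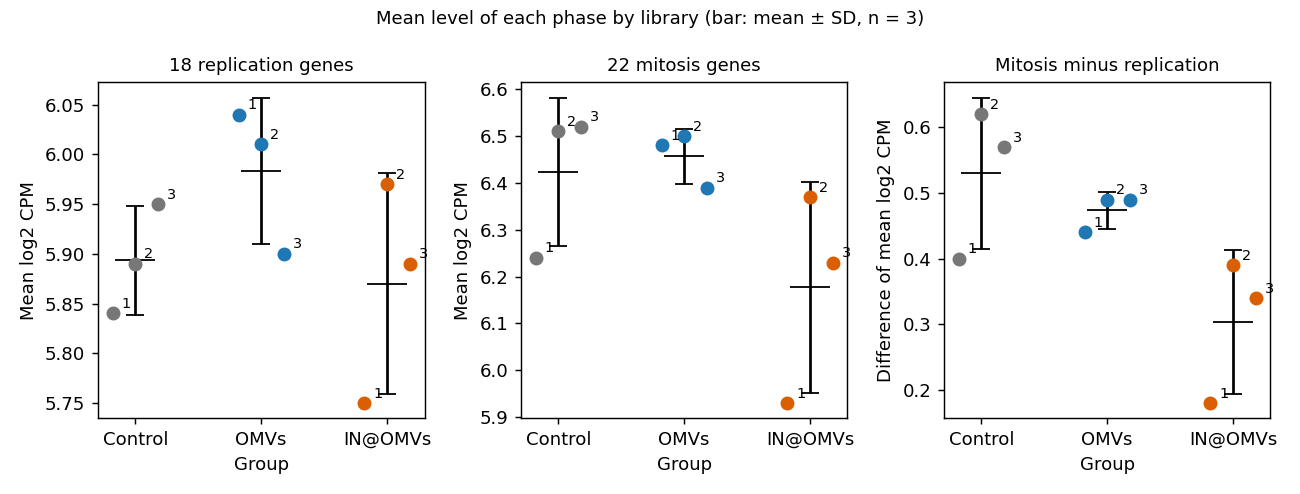
Points are libraries with their numbers, and the bars are the mean ± SD of 3 libraries; the vertical axes are mean log2 CPM over the 18 replication genes, over the 22 mitosis genes, and the difference of both. The mitosis mean spans 5.93 to 6.37 in IN@OMVs and 6.39 to 6.50 in OMVs.

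Within a group the mitosis genes moved together from library to library. Control 1 was the lowest Control library for 22 of 22 mitosis genes and IN@OMVs 2 the highest IN@OMVs library for 22 of 22. OMVs 3 was the lowest OMVs library for 19 of 22. Over all genes tested these shares were 37.4%, 30% and 37%. For replication genes the same libraries gave 12, 13 and 15 of 18. Set side by side by number, the mitosis mean in IN@OMVs differed from Control by -0.31, -0.15 and -0.29 and from OMVs by -0.55, -0.13 and -0.16. Between the libraries numbered 1 of IN@OMVs and Control, all 22 mitosis genes were lower in IN@OMVs, and 19 and 22 were lower in those numbered 2 and 3.

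Plain vesicles were set against solvent first. None of the 40 passed the edgeR test, where 55 of 13090 genes did (0.42%, with 0.298% higher and 0.122% lower), and 1 of them, E2f1, had an unadjusted p under 0.05, against 8.44% of all genes. DESeq2, which called 1.58% of all genes, and limma-voom also called 0 of the 40. Replication genes lay slightly higher (17 of 18 positive, median 0.08, -0.02 to 0.23) and mitosis genes on both sides of zero (16 positive and 6 negative, median 0.04, -0.09 to 0.14). Without the 3 libraries numbered 1 the medians were 0.01 and -0.08. Groups did not overlap for 2 replication genes, both higher in OMVs, against 9.89% of all genes in that direction, and for no mitosis gene.

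E2f1 encodes a transcription factor that drives S phase genes. It stood at 33.1, 31.5 and 37 CPM in Control, 37.3, 39.9 and 37.8 in OMVs, and 36, 38 and 40.9 in IN@OMVs. Every OMVs library was above every Control library, by as little as 37.3 against 37 CPM, and the log2 change was 0.18 ± 0.08 SE (edgeR adjusted p = 0.567). Tyms, thymidylate synthase, was the other gene without overlap (0.15 ± 0.08, edgeR adjusted p = 0.726). Ccne2, a cyclin E gene, had the largest replication difference between OMVs and Control (0.23 ± 0.12), at 9.78, 13.1 and 12.3 CPM in Control, 13.7, 14.3 and 13.1 in OMVs and 13.3, 12.7 and 15 in IN@OMVs. Control 1 was its lowest library of all 9, and its counts were fractional in every library. The other cyclin E gene, Ccne1, was level, at 15, 13.6 and 14.3 CPM in Control, 14, 13.3 and 15.7 in OMVs and 15.7, 13.9 and 12.9 in IN@OMVs, with fitted changes between -0.02 and 0.00.

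The helicase subunit gene Mcm5 stood at 109, 113 and 114 CPM in Control, 138, 126 and 112 in OMVs and 98, 117 and 111 in IN@OMVs. OMVs 1 and 2 were above all other libraries and OMVs 3 was within the Control range. Mcm2, another subunit, had 78, 81 and 83 CPM in Control, 94.4, 89.1 and 80.8 in OMVs and 75.5, 92.6 and 81.3 in IN@OMVs, with the same order within OMVs. The 6 helicase genes Mcm2 to Mcm7 had log2 changes from 0.05 to 0.16 in OMVs against Control and from -0.20 to -0.07 in IN@OMVs against OMVs, none past the threshold, and OMVs 1 was the highest library for each of the 6.

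Among mitosis genes, the OMVs difference from Control was 0.14 ± 0.14 for Aurkb, the Aurora kinase of the chromosomal passenger complex, and 0.10 ± 0.14 for Ube2c, which carries ubiquitin for the anaphase-promoting complex. Aurkb stood at 46.7, 55.5 and 55.9 CPM in Control, 59.2, 60.1 and 54.9 in OMVs and 39.4, 59.5 and 51.6 in IN@OMVs. Ube2c stood at 56.1, 74.1 and 69.9 CPM in Control, 70.8, 75.2 and 68.8 in OMVs and 49.1, 70.4 and 60.3 in IN@OMVs. In both genes Control 1 was low among Control and IN@OMVs 1 lowest of all 9 libraries.

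**Figure D3:**
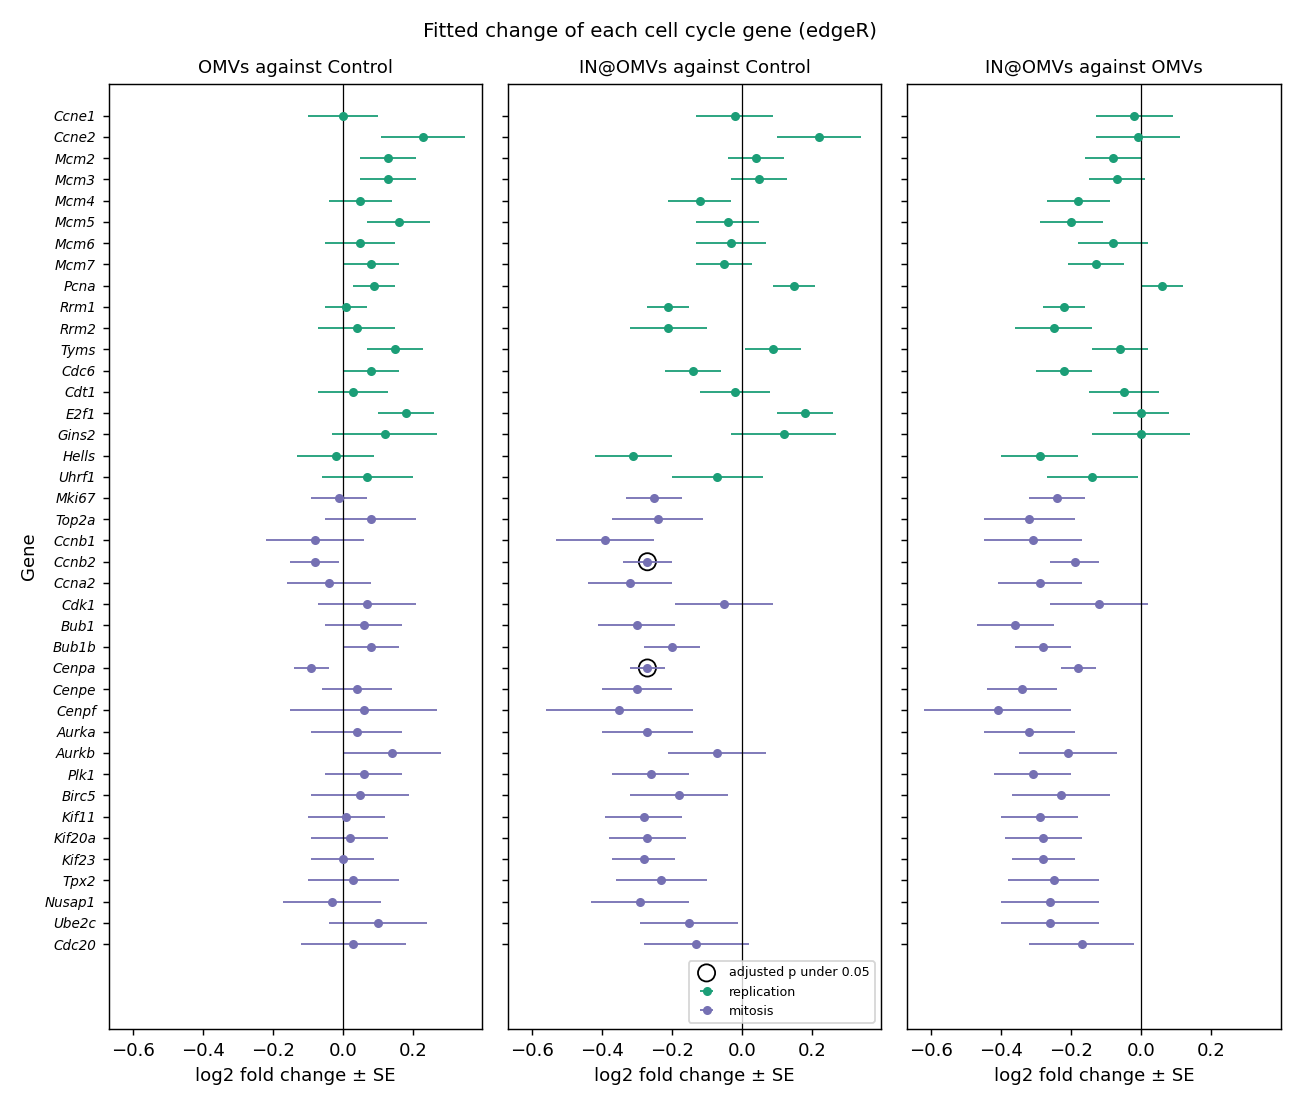
Fitted log2 fold change ± SE (edgeR) of each gene in the 3 comparisons, with replication genes in green, mitosis genes in violet, and circles where the adjusted p was under 0.05. All mitosis genes lie left of zero in both comparisons with IN@OMVs, and the circles mark Ccnb2 and Cenpa.

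IN@OMVs were then set against solvent. Cenpa, the histone variant that marks centromeres, stood at 59.7, 66.5 and 62.9 CPM in Control, 59.1, 60.6 and 57.9 in OMVs and 51.9, 54 and 51.1 in IN@OMVs. The IN@OMVs libraries lay close together and below the 6 others, and Cenpa fell by 0.27 ± 0.05 SE on the log2 scale (edgeR adjusted p = 0.0199). Its call was lost without Control 2 (adjusted p = 0.0915), Control 3 (0.0786) or IN@OMVs 3 (0.0771). Ccnb2, a mitotic cyclin, stood at 60.9, 62.7 and 65 CPM in Control, 63.4, 59.9 and 54.9 in OMVs and 53, 54.3 and 49.3 in IN@OMVs. Again every IN@OMVs library was below every other library, and Ccnb2 fell against Control by 0.27 ± 0.07 (edgeR adjusted p = 0.0444). With the replicate number as a block its adjusted p was 0.0748, and it was called in 7 of 17 alternatives (adjusted p from 0.0122 to 0.174), while Cenpa was called in 13.

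Those 2 of 22 stand beside 3.24% of all genes tested that were called lower, and 12 of the 22 had an unadjusted p under 0.05, against 19.8% of all genes in either direction. Groups did not overlap for 4 mitosis genes, all lower in IN@OMVs (Mki67, Ccnb2, Cenpa and Cenpe), against 12.5% of all genes in that direction. Without the 3 libraries numbered 1, which stand high in T cell markers, 10 of the 22 fell, against 6.38% of all genes in that fit: Mki67, Ccnb1, Ccna2, Bub1, Cenpe, Kif11, Kif23 and Nusap1 besides the same pair, with log2 changes of -0.34 to -0.26 for those 8 and the median at -0.26. Without IN@OMVs 1 alone the median was -0.17 and Ccnb2 and Cenpa were still called. That fit called 1635 genes in all, against 858 with all 9 libraries.

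Mki67, the usual marker of dividing cells, stood at 369, 435 and 433 CPM in Control, 426, 410 and 392 in OMVs and 319, 368 and 354 in IN@OMVs. The highest IN@OMVs library was just under the lowest Control library, and the log2 change was -0.25 ± 0.08 against Control (edgeR adjusted p = 0.126). Top2a, the topoisomerase that untangles sister chromatids, stood at 301, 367 and 365 CPM in Control, 374, 374 and 345 in OMVs and 236, 327 and 314 in IN@OMVs. IN@OMVs and Control overlapped through Control 1, and the change was -0.24 ± 0.13.

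The cyclin genes Ccnb1 and Ccna2 had large differences that did not pass. Ccnb1 stood at 64.3, 81 and 78.6 CPM in Control, 73.1, 70.8 and 68.3 in OMVs and 44.6, 67.7 and 58.8 in IN@OMVs (-0.39 ± 0.14 against Control, edgeR adjusted p = 0.166). Ccna2 stood at 136, 160 and 167 CPM in Control, 154, 155 and 142 in OMVs and 102, 139 and 129 in IN@OMVs (-0.32 ± 0.12, edgeR adjusted p = 0.161). In both, IN@OMVs 2 was above Control 1 and all IN@OMVs libraries were below all OMVs libraries. Counts of both genes were fractional in every library.

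Their kinase partner gene Cdk1 differed least among the mitosis genes. It stood at 56.8, 71.9 and 73.5 CPM in Control, 68.1, 74.3 and 70.2 in OMVs and 51.1, 75.5 and 68.7 in IN@OMVs, so IN@OMVs 2 was the highest of all libraries and IN@OMVs 1 the lowest. The log2 change was -0.05 ± 0.14 against Control and -0.12 ± 0.14 against OMVs.

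Genes of the kinetochore and of the spindle midzone are given next; none of the 3 passed the test. Cenpf, a kinetochore protein gene, had the widest spread, at 73.1, 103 and 96.4 CPM in Control, 102, 98.6 and 83.9 in OMVs and 48.2, 88.7 and 77.4 in IN@OMVs (-0.35 ± 0.21 against Control and -0.41 ± 0.21 against OMVs). Cenpe, a kinetochore motor gene, stood at 78.4, 94.8 and 94.4 CPM in Control, 93.5, 94.5 and 87 in OMVs and 63.6, 78.1 and 75.8 in IN@OMVs, with no overlap between IN@OMVs and either other group (-0.30 ± 0.10 and -0.34 ± 0.10, edgeR adjusted p = 0.12 and 0.133). The kinesin gene Kif23, needed for the midbody of dividing cells, stood at 60.7, 74.5 and 72.1 CPM in Control, 71.6, 70.3 and 65.5 in OMVs and 51.8, 62.3 and 56.2 in IN@OMVs. Its change was 0.00 ± 0.09 in OMVs against Control and -0.28 ± 0.09 in IN@OMVs against either.

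Replication genes in IN@OMVs went both ways against Control, 7 positive and 11 negative, with 0 called by edgeR and 4 of 18 at an unadjusted p under 0.05, beside 19.8% of all genes. Groups did not overlap for 2 of 18, Rrm1 and Hells, both lower, beside 12.5% of all genes in that direction, so both counts were near the background. Rrm1, the large subunit of ribonucleotide reductase, stood at 164, 167 and 181 CPM in Control, 173, 177 and 167 in OMVs and 142, 155 and 148 in IN@OMVs (-0.21 ± 0.06, edgeR adjusted p = 0.0769). DESeq2 called it (adjusted p = 0.0152), where it called 9.05% of all genes. Hells, a chromatin remodelling helicase gene, stood at 45.8, 46 and 51.9 CPM in Control, 47.7, 50.7 and 43.1 in OMVs and 32.3, 40.8 and 42.5 in IN@OMVs (-0.31 ± 0.11, edgeR adjusted p = 0.148).

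Rrm2, the small subunit of the same reductase, stood at 70.3, 77.2 and 76.2 CPM in Control, 79.3, 78.8 and 71.4 in OMVs and 52.2, 72.1 and 68.5 in IN@OMVs, where IN@OMVs 1 was far below the rest (-0.21 ± 0.11 against Control). Pcna lay the other way, at 219, 211 and 231 CPM in Control, 235, 243 and 226 in OMVs and 225, 256 and 251 in IN@OMVs. Its highest libraries were IN@OMVs 2 and 3, and its change was 0.15 ± 0.06 against Control (edgeR adjusted p = 0.246). Ccne2 (0.22 ± 0.12) and E2f1 (0.18 ± 0.08) were positive as well.

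The direct contrast of both vesicle groups had equal doses of vesicle protein on each side. EdgeR called none of the 40 genes, where it called 373 of 13090 (2.85%), and 13 of 22 mitosis genes and 4 of 18 replication genes had an unadjusted p under 0.05, against 14.4% of all genes. DESeq2 called 3 of the 40, all lower (Rrm1, Bub1b and Cenpe), beside 4.94% of all genes, and limma-voom called 0. For 14 of the 22 mitosis genes every IN@OMVs library was below every OMVs library, against 8.72% of all genes in that direction and 8.86% in the other, and the same held for 3 of 18 replication genes (Rrm1, Hells and Cdc6). Without IN@OMVs 1 the mitosis median was -0.18 and without all 3 libraries numbered 1 it was -0.15.

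Bub1, a spindle checkpoint kinase gene, stood at 49.7, 59.1 and 58.5 CPM in Control, 57.3, 59.4 and 57.7 in OMVs and 37.7, 50.6 and 47.4 in IN@OMVs. OMVs libraries were tightly grouped and above all IN@OMVs libraries (-0.36 ± 0.11, edgeR adjusted p = 0.15). The remaining mitosis genes, Bub1b, Aurka, Plk1, Birc5, Kif11, Kif20a, Tpx2, Nusap1 and Cdc20, had log2 changes between -0.32 and -0.17 against OMVs and between -0.29 and -0.13 against Control. The remaining replication genes, Mcm3, Mcm4, Mcm6, Mcm7, Tyms, Cdc6, Cdt1, Gins2 and Uhrf1, had changes between -0.22 and 0.00 against OMVs and between -0.14 and 0.12 against Control.

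**Figure D4:**
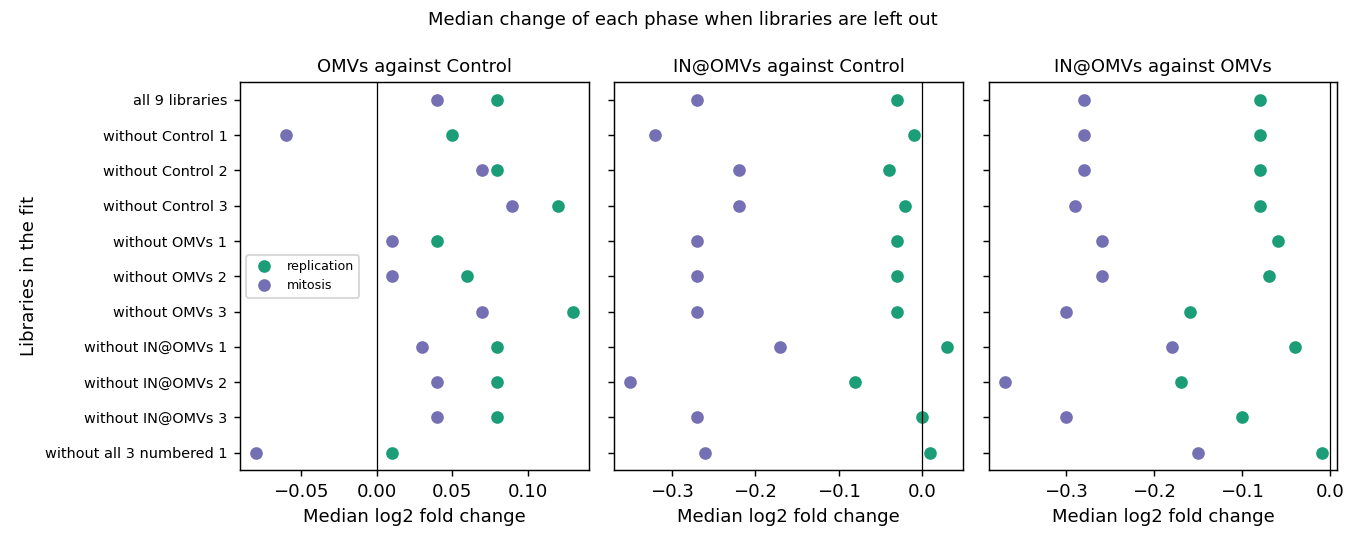
Median log2 fold change of the 18 replication and 22 mitosis genes in each comparison, with all 9 libraries, with each library left out, and with the 3 libraries numbered 1 left out; the horizontal scale differs between panels. In IN@OMVs against Control the mitosis median ranges from -0.35 to -0.17 over single omissions, and in OMVs against Control it changes sign without Control 1, to -0.06.

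Further genes of the cycle were read from lists of their own. Of 40 other mitosis genes, all tested, 39 were negative in IN@OMVs against Control (median -0.21) and 38 against OMVs (median -0.19), with 0 past the threshold by edgeR in either and 14 and 8 of 40 at an unadjusted p under 0.05, beside 19.8% and 14.4% of all genes. In OMVs against Control 17 were positive and 23 negative (median -0.01). The smallest p with IN@OMVs belonged to Cep55, which acts in the last cut between daughter cells: 41.6 ± 1.71 CPM in Control, 40.8 ± 2.54 in OMVs and 35 ± 1.42 in IN@OMVs (SD, n = 3 each), with edgeR adjusted p = 0.0559 against Control. Of 30 other replication genes, 0 passed in any comparison and the medians were 0.08, 0.00 and -0.10 in OMVs against Control, IN@OMVs against Control and IN@OMVs against OMVs, where Mcm10, Clspn and Pola1 had the smallest p.

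Some regulators that act before S phase changed, but most did not. Of 9 genes listed as G1 cyclins and kinases, edgeR called 2 higher in IN@OMVs against Control and 1 against OMVs. It called 0 lower, and the list medians were 0.02 and 0.01. Ccnd2, a D-type cyclin that activates CDK4 and CDK6 in G1, stood at 65.9, 58.1 and 57.4 CPM in Control, 63, 58.1 and 55.6 in OMVs and 88.4, 79.1 and 86.4 in IN@OMVs. All IN@OMVs libraries were above the 6 others, and Ccnd2 rose against Control (0.48 ± 0.08, edgeR adjusted p = 0.00592) and against OMVs (0.52 ± 0.08, edgeR adjusted p = 0.00739), in each of 17 alternatives. Of all genes tested, 3.32% rose against Control and 1.1% against OMVs. Ccnd1, another D-type cyclin with fractional counts in all libraries, stood at 293, 320 and 337 CPM in Control, 373, 397 and 343 in OMVs and 379, 456 and 430 in IN@OMVs. It rose against Control (0.41 ± 0.09, edgeR adjusted p = 0.0264), and this call was lost without Control 1, 2 or 3 or IN@OMVs 2 or 3 (adjusted p from 0.0542 to 0.104).

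Cdkn2d, which encodes the CDK4 and CDK6 inhibitor p19INK4d, moved the other way. It stood at 32.5, 33.4 and 34.4 CPM in Control, 29.1, 27.3 and 27.4 in OMVs and 21.9, 22.5 and 24.3 in IN@OMVs, 3 sets that did not overlap. It fell in IN@OMVs against Control (-0.55 ± 0.06, edgeR adjusted p = 0.00131), in each of 17 alternatives, and its change was -0.26 ± 0.06 in OMVs against Control (edgeR adjusted p = 0.192) and -0.29 ± 0.06 in IN@OMVs against OMVs (edgeR adjusted p = 0.0555, called by DESeq2 at 0.0261). None of the other 4 inhibitors tested, of 7 listed, passed in any comparison. Of all genes tested, 3.24% were called lower in IN@OMVs against Control.

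E2f6, a repressor of the E2F family, stood at 17.4, 18.3 and 20.1 CPM in Control, 21.8, 22.5 and 20.2 in OMVs and 22.9, 23.7 and 25.8 in IN@OMVs. It rose in IN@OMVs against Control (0.38 ± 0.08, edgeR adjusted p = 0.0308), but its adjusted p was 0.0634 with the replicate number as a block, and the call was lost when any of 6 libraries was left out (Control 1 or 2, OMVs 1 or 2, IN@OMVs 2 or 3, adjusted p from 0.0525 to 0.127). The other 11 genes of the RB and E2F family did not pass, where 3.32% of all genes were called higher in IN@OMVs against Control. Among 8 genes of MuvB, B-MYB and FOXM1, 0 passed by edgeR in any comparison. Foxm1, whose product drives mitotic genes, stood at 75.2 ± 6.49 CPM in Control, 80.6 ± 8.74 in OMVs and 64.8 ± 12.7 in IN@OMVs (SD, n = 3 each, edgeR adjusted p = 0.464 against Control), and Mybl2, which encodes B-MYB, at 26.7 ± 1.7, 30.5 ± 5.29 and 24.3 ± 3.21 CPM.

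**Figure D5:**
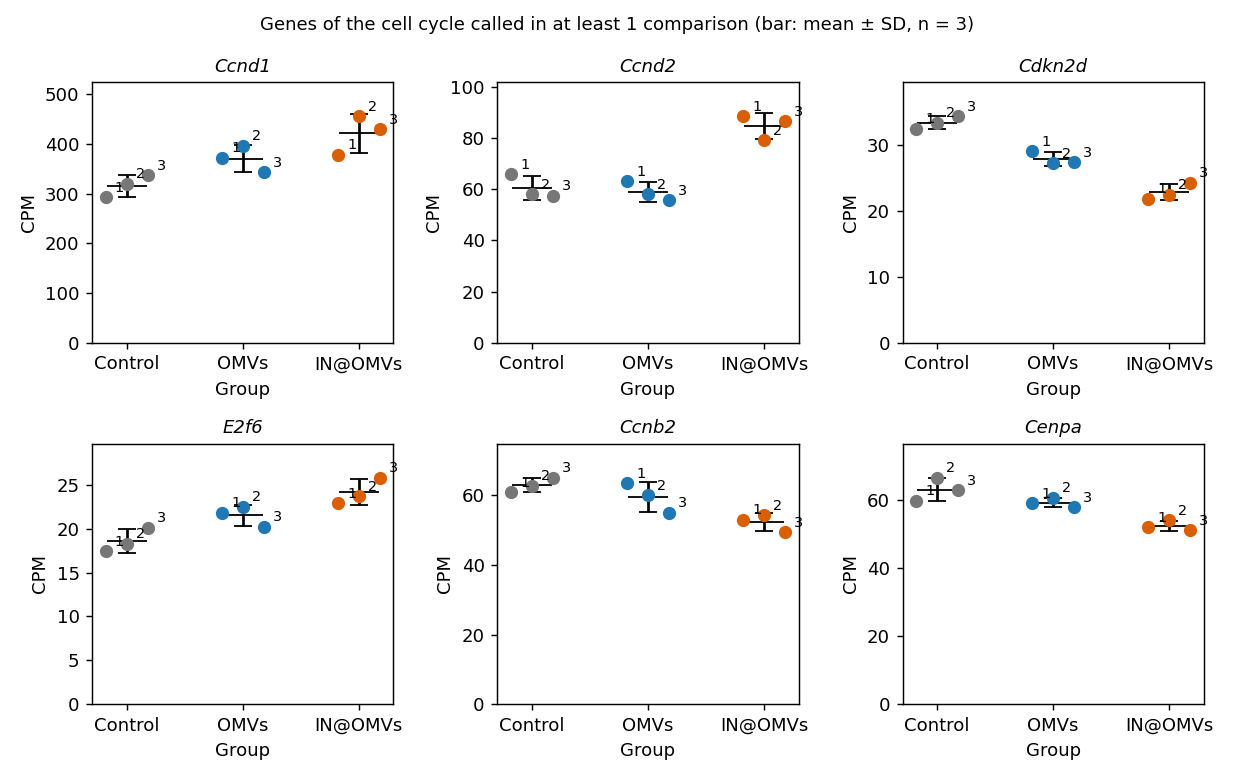
CPM of the 6 cell cycle genes past the threshold in at least 1 comparison, with 1 point per library (numbered) and the mean ± SD of 3 libraries; each axis starts at 0. Ccnd2 and E2f6 are higher and Cdkn2d, Ccnb2 and Cenpa are lower in all 3 IN@OMVs libraries than in all others. E2f6 is higher by as little as 22.9 against 22.5 CPM, and Ccnd1 overlaps between OMVs and IN@OMVs.

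Markers of other cells differed between the same groups. Neutrophil markers, 8 of 8 lower by edgeR in IN@OMVs against both groups (beside 3.24% of all genes against Control and 1.75% against OMVs), summed to 998 to 1430 CPM in Control, 745 to 981 in OMVs and 225 to 277 in IN@OMVs. Monocyte markers summed to 1560 to 1920, 1130 to 1280 and 974 to 1170 CPM, and among them Plac8, Chil3 and Vcan were lower by edgeR in IN@OMVs against Control, and Chil3 also in OMVs against Control. Of 8 conventional dendritic cell markers, 5 were positive and 3 negative in IN@OMVs against Control. Clec9a and Batf3 were higher there (edgeR adjusted p = 0.00832 and 0.0168) and Batf3 also against OMVs (0.0476), beside 3.32% and 1.1% of all genes. Flt3 went the other way, with every IN@OMVs library below every Control library (-0.79 ± 0.32, edgeR adjusted p = 0.218). The 8 summed to 38.3 to 55.3 CPM in Control, 37.3 to 42.7 in OMVs and 41.7 to 57.1 in IN@OMVs. Of 5 endothelial markers tested, Kdr was higher in IN@OMVs against Control and OMVs (edgeR adjusted p = 0.0112 and 0.0167) and Pecam1 lower against OMVs (0.0183). The shares of all genes were 3.32% and 1.1% higher, and 1.75% lower against OMVs. Kdr was the only positive marker of the 5 in both comparisons, and the other 4 were negative (list medians -0.24 and -0.59). Cdh1, listed as an epithelial marker, was lower in IN@OMVs against Control (edgeR adjusted p = 0.0222), beside 3.24% of all genes. Epcam, the other one tested, was not called (-0.56 ± 0.31, edgeR adjusted p = 0.379). Mean CPM in Control was 54.4 for Cdh1 and 1.25 for Epcam, so Cdh1 alone does not give the level of epithelial cells. T cell, NK cell, B cell and macrophage markers had 0 called by edgeR in any comparison. Of the 11 macrophage markers, 6 were positive and 5 negative in IN@OMVs against Control (-0.50 to 0.49). An unadjusted p under 0.05 was found for 4 of them, beside 19.8% of all genes. Itgam was the lowest (-0.50 ± 0.13, edgeR adjusted p = 0.0512), with every IN@OMVs library below every Control and OMVs library. Fibroblast markers (0 of 10 called) summed to 4600 to 6310 CPM in Control, 3820 to 5050 in OMVs and 1610 to 5180 in IN@OMVs, lowest in the library where mitosis genes were lowest as well. Their part in the levels of the cell cycle genes was not tested.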

How the data were processed

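RNA of sorted tumour macrophages was measured in 9 libraries, 3 per group. The authors deposited a table of expected counts, not normalised, with 1 row per gene symbol. That unit was read from the values, which are part whole and part fractional. RSEM, Bowtie2 and BWA are named without versions in the submitters' processing notes, beside the builds mm9 and hg19. Annotation and strand setting are not given in the sources used here. Libraries were made with oligo-dT beads, per the labels' protocols.

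Expected counts were rounded and fitted in edgeR 4.0.16 (R 4.3.3, quasi-likelihood test, TMM factors, filterByExpr, 1 mean per group over 9 libraries). P-values were adjusted by Benjamini-Hochberg over 13090 genes, separately per comparison, and called under 0.05. Fold changes are log2 with the standard error of the fit. Mean log2 CPM used a prior count of 2. The steps were tested on simulated data. The labels call the replicates biological without saying what a number marks. The p-values set each group difference against the spread between these libraries, and whether that is a spread between mice is not known.

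Same-numbered libraries deviated together from their group means for OMVs and Control (correlations 0.53, 0.37 and 0.12 over genes) and for IN@OMVs and Control (0.45, 0.31 and 0.15), and not for IN@OMVs and OMVs (0.07, 0.51 and -0.37). Correlations between libraries of different numbers ranged from -0.49 to 0.36 in the first 2 comparisons, so the numbers are not established as pairs. The main fits used no pairs, and the replicate number entered only as a block in an alternative fit.

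The members, lists and tests were chosen with earlier results of these data known. Values in every library are given for genes called, for the 3 largest and the smallest change per phase and comparison, and for 9 fixed genes, which made 22 of the 40. Of each other list, up to 4 called members, or the 1 with the smallest p, were named. Alternatives were the replicate block, DESeq2 1.42.0 and its size factors, upper-quartile factors, no filter, limma-voom (limma 3.58.1), 2 groups only, and libraries left out.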

Additional observations from a re-analysis of the deposited data

How the results depend on the processing

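No called value changed sign under any alternative, but medians near 0 did: the mitosis median in OMVs against Control went from 0.04 to -0.06 without Control 1 and to -0.08 without the 3 libraries numbered 1, and the replication median in IN@OMVs against Control from -0.03 to 0.03 without IN@OMVs 1 and to 0.01 without the libraries numbered 1. Calls in OMVs against Control, 55 of 13090 genes, were 207 by DESeq2, 36 by limma-voom, 115 with 2 groups only and 313 without the 3 libraries numbered 1, and 0 to 266 with single libraries left out (0 without Control 2, Control 3, OMVs 2 or OMVs 3, and 266 without IN@OMVs 1). Calls in IN@OMVs against Control, 858, were 519 with 2 groups only, 1475 without the libraries numbered 1, and 393 (without Control 3) to 1635 (without IN@OMVs 1). Calls in IN@OMVs against OMVs, 373, were 646, 195 and 844 by DESeq2, with 2 groups only and without the libraries numbered 1, and 180 (without OMVs 2) to 786 (without IN@OMVs 1). Mitosis genes called in IN@OMVs against Control, 2, were 1 with upper-quartile factors, 1 with no filter, 0 with 2 groups only, 10 without the libraries numbered 1 and 0 to 2 with single libraries left out. In IN@OMVs against OMVs, 2 mitosis genes were called by DESeq2 and 1 (Bub1) without the libraries numbered 1. DESeq2 called 1 replication gene, Rrm1, in each comparison with IN@OMVs. The replication median in OMVs against Control, 0.08, was 0.01 without the libraries numbered 1 and 0.04 to 0.13 with single libraries left out. The cause of these differences was not tested.

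With the replicate number as a block, calls were 20 in OMVs against Control and 1 mitosis gene, Cenpa, in IN@OMVs against Control, and the mitosis medians were -0.27 and -0.29 in IN@OMVs against Control and against OMVs. Ccnb2 and E2f6 lost their calls against Control under the block (adjusted p = 0.0748 and 0.0634), and Ccnd1, Ccnd2, Cdkn2d and Cenpa were still called. With 3 libraries per group, log2 changes of these genes had standard errors of 0.05 to 0.21.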
